A study of Mus musculus with 19 samples.

Results

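The effect of diabetes in mice that also received rosiglitazone was read from 10 of the 19 arrays of the series, 5 from diabetic and 5 from non-diabetic animals, and every measured gene entered the comparison. The arrays were chosen by their titles, which give diabetes status and treatment. All animals were DBA/2J mice, an inbred strain, and the tissue was sciatic nerve. Control animals carry rosiglitazone as their only treatment in the labels, and diabetic animals carry streptozotocin (STZ) together with rosiglitazone, so both sides of the comparison received the drug. The design text calls the diabetes type 1 and gives 5 mice per group with 1 array each. The series title names diabetic neuropathy as the condition treated, and the question here is what diabetes does to the nerve transcriptome when the drug is present. The remaining arrays, 4 from control and 5 from diabetic mice given vehicle, shared no array with this comparison and were used for the common estimate of spread and for a comparison side by side. Dose, duration of treatment, age and the hour at which tissue was taken are not given in the sources used here. Arrays are called CR711 to CR715 (control, rosiglitazone) and DR716 to DR720 (diabetic, rosiglitazone), after the numbers in their titles.

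Streptozotocin is taken up by pancreatic beta cells and kills them, which leaves the animal short of insulin and high in blood glucose. Rosiglitazone activates PPAR gamma, a nuclear receptor that turns on genes of fat storage in adipocytes and is also present in macrophages and endothelium. Peripheral nerve is built from axons, the Schwann cells that wrap them in myelin, fibroblasts, vessels, resident macrophages and mast cells, and it lies in a fatty sheath, the epineurium. Schwann cells make most of the cholesterol and fatty acids of their myelin themselves, and insulin promotes lipid synthesis through SREBP transcription factors. Nearly all cells also run a circadian clock, in which CLOCK or NPAS2 pairs with BMAL1 (gene symbol Arntl) to drive the Per and Cry genes, whose products then repress that pair.

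Values are log2 intensities of RMA-processed Affymetrix probe sets, 1 probe set per gene, and differences are diabetic minus control, so that 1 unit is a 2-fold change. They were fitted with limma for 13460 genes above a log2 intensity of 5.54. The tissue labels were first checked against marker genes. Mbp, which encodes myelin basic protein, was measured between 13.83 and 14.33 in the control arrays and between 14.03 and 14.22 in the diabetic arrays, and the myelin membrane protein gene Pmp22 between 13.82 and 14.23 and between 13.95 and 14.15. Transcripts from outside the nerve trunk were present as well. For each gene list a level per array was taken as the mean of its genes after each gene was centred on its mean over the 19 arrays. Sensory neuron cell bodies lie in ganglia, and the level of 20 of their genes was -3.19 in CR715 and -3.05 in DR716 and between -0.04 and 1.68 in the other 8 arrays. Isl1, a transcription factor of these neurons, was at 6.41 in CR715 and 3.83 in DR716 and between 9.47 and 11.26 elsewhere. The myelin level was lowest in the same 2 arrays, at -1.05 and -0.65, against -0.03 to 0.35 in the rest. Adipocyte transcripts were highest in them, at 2.82 in CR715 and 1.64 in DR716 against -0.82 to 1.26 in the other arrays, and skeletal muscle transcripts spanned -1.77 in CR712 to 2.80 in DR720. Since 1 such array lies in each group, they widen the spread on both sides, and leaving out both leaves 4 arrays on each side. Genes and list medians with a difference beyond 0.1 that moved by over 1.5 times without them are given both ways. The effects of leaving out both can cancel, so list medians beyond 0.1 that changed by over 1.5 times without a single array are given without that array as well. In bulk tissue, fewer cells of a type and less RNA per cell cannot be told apart. RNA breakdown was read from the Gapdh control probe sets as the 3' minus the 5' signal, higher values meaning more breakdown, and this was 1.24 ± 0.06 (SD, n = 5) in control and 1.20 ± 0.31 (SD, n = 5) in diabetic arrays (two-sided exact permutation p = 0.865). DR716 stood at 1.75, above the 1.18 to 1.34 of the control arrays, whereas the other 4 diabetic arrays lay below them at 1.00 to 1.15. Without DR716 the difference was -0.18 (exact permutation p = 0.00794, the smallest that 126 splits can give). That p was fixed by the choice of array, since the 4 diabetic arrays left all lay below the controls, so it is no test. Without DR717 or DR719 instead, the difference was 0.0087 or 0.0086 (exact permutation p = 0.984 for both). The corresponding beta-actin difference was 1.70 in DR716 and between 0.47 and 1.31 in the other 9 arrays (exact permutation p = 0.738).

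**Figure D1:**
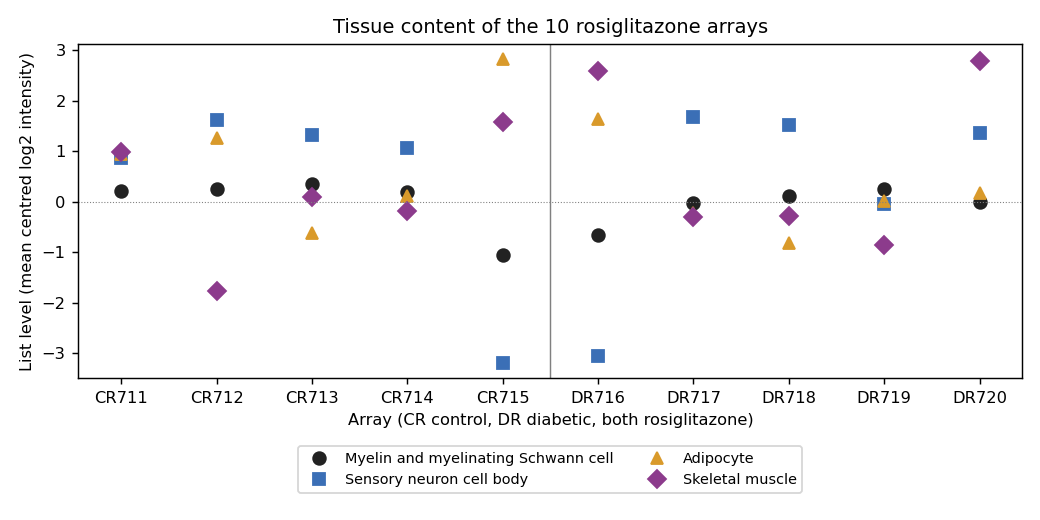
Level of 4 marker lists (y axis, mean centred log2 intensity) in each of the 10 rosiglitazone arrays (x axis), with the control arrays left and the diabetic arrays right of the line. Arrays CR715 and DR716 hold the lowest sensory neuron levels, -3.19 and -3.05, the lowest myelin levels and the highest adipocyte levels, while muscle is highest in DR720 at 2.80.

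No single gene separated diabetic from control nerve under the drug after adjustment. By limma, 0 genes out of 13460 (0.0%) had an adjusted p under 0.05, and the adjusted p was 1.00 for every gene. At an unadjusted p under 0.05 there were 173 genes (1.29%), with 63 (0.468%) higher and 110 (0.817%) lower in the diabetic group. Higher means were found for 51.7% of genes, the median difference was 0.01, and the 5th to 95th percentiles of the differences ran from -0.29 to 0.34. A difference beyond 1 was seen in 83 genes, 45 higher and 38 lower. In 54 genes (0.401%) the 5 diabetic arrays did not overlap the 5 control arrays, 24 with diabetic arrays higher (0.178%) and 30 lower (0.223%). Without CR715 and DR716 there were 209 genes at an unadjusted p under 0.05 (1.55%) and a median difference of -0.01, and without CR715 alone there were 356. The genes below are therefore described by their values with the SE of the fit, and none of their differences is a call.

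The differences fell unevenly over 41 gene lists of pathways and cell types. Genes of a list were measured on the same arrays and are not independent replicates. The lists were also chosen with earlier results of these data known. Counts of members are therefore given as descriptions, without a test. Every tested member of the cholesterol synthesis list (20 genes) and of the fatty acid and triglyceride synthesis list (23 genes) had a lower mean in diabetic nerve, and every member of the mast cell list (10 genes) a higher mean. Clock, interferon, macrophage and cell cycle genes lay mostly higher. Medians of 20 lists, among them myelin, oxidative phosphorylation, glycolysis, matrix and endothelium, were within 0.1 of 0. Leaving out CR715 and DR716 turned the sign of the median in 8 lists.

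**Figure D2:**
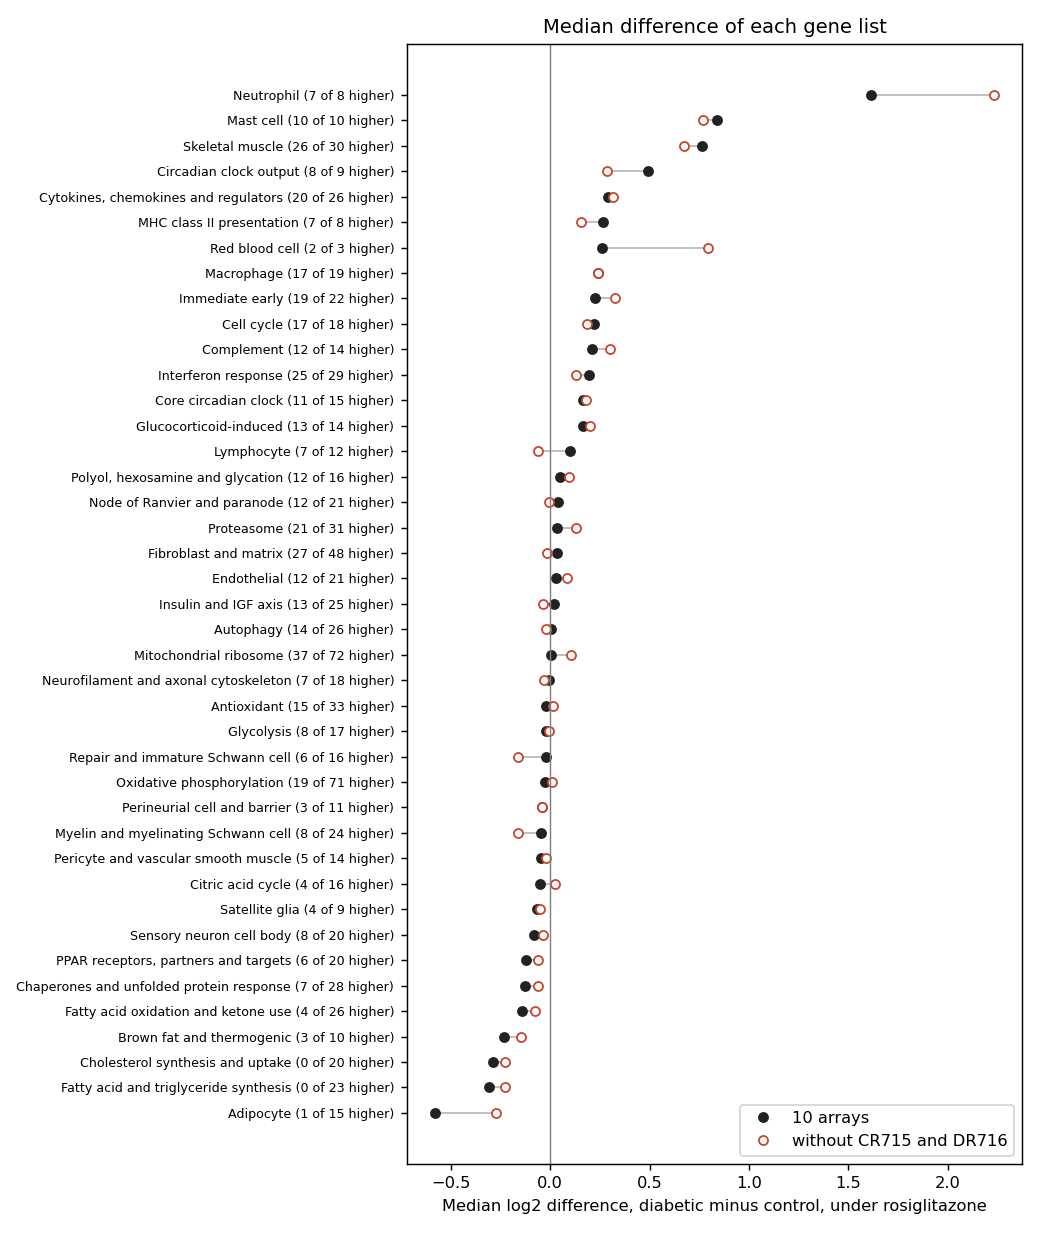
Median log2 difference, diabetic minus control under rosiglitazone (x axis), of the tested genes of each of 41 lists (y axis, with the number of members higher). Filled points use all 10 arrays and open points leave out CR715 and DR716. The neutrophil list has the highest median, 1.61, and the adipocyte list the lowest, -0.58; without both arrays these medians are 2.23 and -0.27.

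The 12 genes with the smallest unadjusted limma p among those higher in diabetic nerve differed by 0.29 to 1.12. BC028528, an uncharacterised gene, was at 10.26, 10.22, 10.45, 10.49 and 10.54 in the control arrays and at 10.89, 10.79, 10.82, 11.32 and 10.90 in the diabetic arrays, a difference of 0.55 (SE 0.14). Every diabetic array lay above every control array, with DR719 highest. Cdc6, which loads the replicative helicase onto DNA, was between 6.66 and 7.19 in control and between 7.28 and 8.59 in diabetic arrays (difference 0.87, SE 0.29), again with no overlap. Clec4b1, a lectin receptor of myeloid cells, read 7.88, 7.55, 6.38, 7.85 and 7.77 in control arrays against 9.11, 7.98, 8.23, 9.55 and 8.17, a difference of 1.12 (SE 0.36). CR713 was well below the other controls and the groups did not overlap, and over single arrays left out the difference ran from 0.85 to 1.28. Milr1, an inhibitory receptor first described on mast cells, differed by 0.72 (SE 0.22), Pias3, an inhibitor of STAT3, by 0.29 (SE 0.10), and Fam167b by 0.73 (SE 0.24). Ckap2, a spindle protein gene, differed by 0.48 (SE 0.15) and Gas8, a subunit of the dynein regulatory complex of cilia, by 0.31 (SE 0.09), the latter in 1 of its 2 probe sets. Pias3, like BC028528, Clec4b1 and Cdc6, had groups that did not overlap, at 9.75 to 10.02 in control and 10.08 to 10.32 in diabetic arrays. Irf7, Wee1, Per2 and Tspan4, which complete the 12, are described with their pathways.

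The 12 genes with the smallest unadjusted limma p among those lower in diabetic nerve differed by -0.94 to -0.28. Pogz, a zinc finger protein gene of chromatin, had the smallest p of all genes (difference -0.42, SE 0.10). Its control arrays read 10.52, 10.37, 10.41, 10.18 and 10.63 and its diabetic arrays 10.06, 10.14, 10.12, 9.80 and 9.90, without overlap, and 3 of 4 probe sets shared the sign. Nudt16l1 was at 12.33, 12.13, 12.16, 12.18 and 12.13 against 11.90, 11.91, 11.98, 11.90 and 11.86 (difference -0.28, SE 0.07), with that sign in 1 of 2 probe sets. Srms, a tyrosine kinase related to Src, was between 6.58 and 7.50 in control and between 5.83 and 6.32 in diabetic arrays, the largest difference of the 12 at -0.94 (SE 0.30). Fah, the last enzyme of tyrosine breakdown, was between 11.28 and 12.43 in control and between 10.98 and 11.21 in diabetic arrays (difference -0.61, SE 0.19, and -0.40 without CR715 and DR716). Hipk2, a nuclear kinase, differed by -0.34 (SE 0.10) and the histone gene H2bc21 by -0.42 (SE 0.13), and the arrays of both groups did not overlap for either. Pole4, a DNA polymerase subunit gene, differed by -0.38 (SE 0.11), Sort1, the sorting receptor sortilin that partners the neurotrophin receptor p75, by -0.48 (SE 0.16), and Gng7, a G protein subunit gene, by -0.38 (SE 0.12). Akap2, an anchor of protein kinase A, differed by -0.37 (SE 0.12) and Wdr78, a component of ciliary dynein, by -0.58 (SE 0.18), the latter in 1 of 2 probe sets. The remaining gene of the 12, Sc5d, is an enzyme of cholesterol synthesis. All 24 of these genes kept their sign without CR715 and DR716 and with any single array left out. They were picked for their small p on the same arrays, so this was largely fixed in advance and is no test.

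Among the circadian clock genes named for their small p, the activators Arntl and Npas2 and the repressors Per2 and Per3 differed in opposite directions. Levels of clock genes change over the day, and the labels do not say whether both groups were sampled at the same hour. The repressor genes Per2 and Per3 and the clock-controlled genes Ciart, Hlf, Wee1 and Tspan4 lay higher in diabetic nerve, while the activator genes Arntl and Npas2 lay lower. Per2 was at 8.01, 7.78, 7.48, 8.002 and 7.52 in control arrays and at 9.32, 8.63, 8.46, 8.91 and 8.98 in diabetic arrays. All 5 diabetic arrays were above all 5 control arrays, and the means, 8.86 ± 0.33 (SD, n = 5) and 7.76 ± 0.26 (SD, n = 5), differed by 1.11 (SE 0.36), which is 2.15-fold (limma adjusted p = 1.00). All 3 probe sets of Per2 had that sign. Arntl read 7.92, 8.25, 9.03, 9.07 and 9.80 in control arrays against 7.59, 7.86, 8.56, 7.33 and 6.33, a difference of -1.28 (SE 0.42). CR711 and CR712, the lowest controls, lay within the range of the diabetic arrays, and the sign was shared by 1 of 2 Arntl probe sets. Npas2, the partner that can replace CLOCK, had nearly the same order of arrays, with 7.44, 8.11, 9.05, 9.06 and 9.66 in control and 7.26, 7.86, 8.85, 6.82 and 6.61 in diabetic mice (difference -1.19, SE 0.47). In both activator genes CR715 was the highest and DR720 the lowest of the 10 arrays.

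Per3 was at 11.20, 10.74, 10.82, 10.69 and 9.60 in control arrays and at 11.85, 11.11, 10.96, 11.33 and 11.65 in diabetic arrays (difference 0.77, SE 0.28, with that sign in 6 of 6 probe sets). Only CR711 reached the diabetic range, and CR715 lay furthest below it. Ciart, a repressor of the CLOCK and BMAL1 pair, was at 7.62, 7.37, 7.14, 7.11 and 6.04 against 7.74, 8.43, 7.50, 7.78 and 8.06 (difference 0.85, SE 0.38), with CR711 alone above the lowest diabetic array. Wee1, a kinase that delays mitosis and is a clock target, was between 8.78 and 9.27 against 9.24 and 10.46 (difference 0.77, SE 0.23), Tspan4, a tetraspanin gene, between 10.32 and 10.77 against 10.56 and 11.57 (0.57, SE 0.18), and Hlf, a PAR bZIP transcription factor gene, between 8.93 and 10.06 against 9.77 and 10.47 (0.49, SE 0.22). Dbp, another factor of that family, was at 12.61, 12.14, 11.59, 11.14 and 10.21 in control and at 13.03, 12.25, 11.79, 11.81 and 12.51 in diabetic arrays (difference 0.74, SE 0.44). The control arrays spread over more than 2 units there, so the groups overlapped widely. From CR711 to CR715, Dbp and Ciart fell and Arntl and Npas2 rose at every step. Per2 did not follow that order in the controls, and none of them kept such an order in the diabetic arrays. What the array numbers stand for is not given. The part of sampling order or hour in the clock differences was not tested. Cry2, a repressor gene, was at 9.94 ± 0.21 (SD, n = 5) and 10.04 ± 0.19 (SD, n = 5), a difference of 0.10 (SE 0.13). Of 15 core clock genes, 11 had a higher mean in diabetic nerve with a median of 0.17, 4 at an unadjusted p under 0.05 higher and 2 lower. Besides Per2, Per3 and Ciart, the fourth of these higher genes was Nr1d2, a repressor of Arntl, which was named after its value was seen (0.39). Of 9 clock output genes, 8 had a higher mean with a median of 0.49, 4 of them at an unadjusted p under 0.05, and Ciart is in both lists. Over all genes 51.7% had a higher mean, and at that p 0.468% lay higher and 0.817% lower. Without CR715 and DR716 the medians were 0.18 and 0.29, Per2 differed by 0.93, Arntl by -1.05, Npas2 by -0.88, Per3 by 0.40, Hlf by 0.29 and Dbp by 0.22. The last 3 moved by over 1.5 times, and CR715 was the lowest control array for each.

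**Figure D3:**
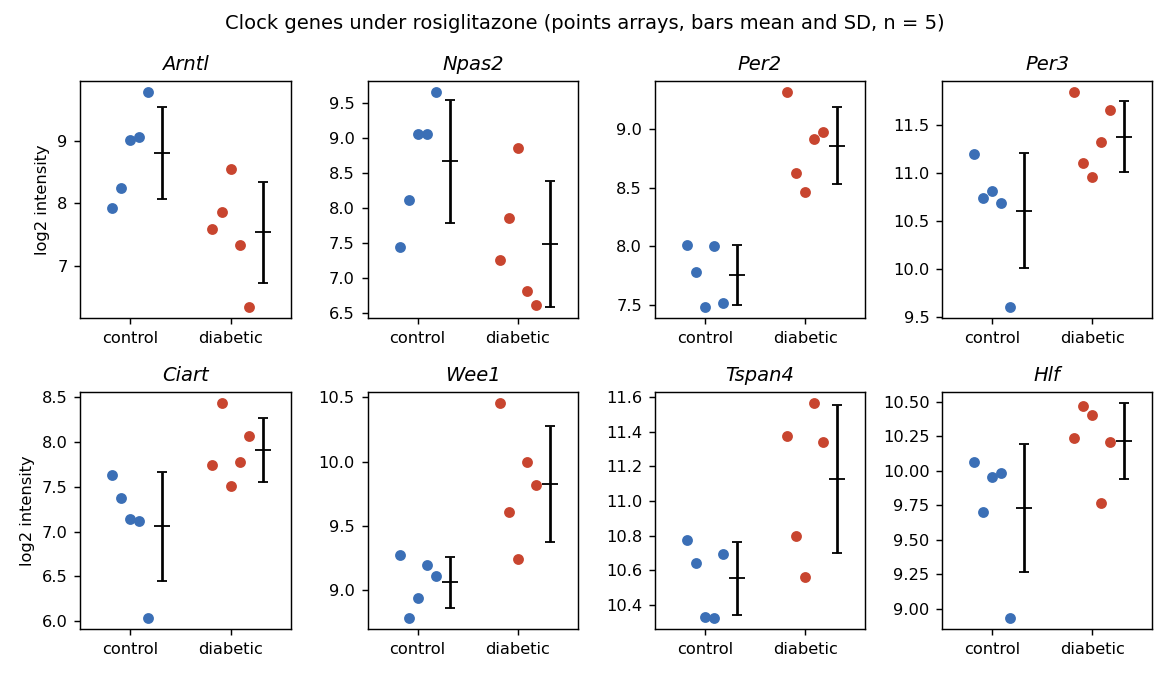
Log2 intensity (y axis) of 8 clock genes in the 5 control and 5 diabetic arrays under rosiglitazone (x axis), with points for arrays and bars for mean and SD. The Per2 groups do not overlap, Arntl and Npas2 lie mostly lower and Per3, Ciart, Wee1, Tspan4 and Hlf mostly higher in diabetic mice.

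Promoter windows of 3 clock genes and 1 interferon gene are shown because each holds a motif that its pathway is known to use. The sequences are from RefSeq, build GRCm38.p6 of the C57BL/6J reference rather than DBA/2J, 300 bases around the annotated start, 5′ to 3′ on the gene's strand, with matches in capitals. The windows are Ciart (chr3:95882179-95882478, minus strand), Arntl (chr7:113207261-113207560, plus strand), Per3 (chr4:151044616-151044915, minus strand) and Ifit1 (chr19:34640639-34640938, plus strand).
Ciart: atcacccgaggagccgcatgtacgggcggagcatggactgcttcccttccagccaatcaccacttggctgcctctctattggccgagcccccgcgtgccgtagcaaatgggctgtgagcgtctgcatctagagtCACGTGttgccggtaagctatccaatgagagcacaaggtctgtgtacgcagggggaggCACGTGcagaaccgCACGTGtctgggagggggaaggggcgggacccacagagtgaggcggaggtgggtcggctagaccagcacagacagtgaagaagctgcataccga
Arntl: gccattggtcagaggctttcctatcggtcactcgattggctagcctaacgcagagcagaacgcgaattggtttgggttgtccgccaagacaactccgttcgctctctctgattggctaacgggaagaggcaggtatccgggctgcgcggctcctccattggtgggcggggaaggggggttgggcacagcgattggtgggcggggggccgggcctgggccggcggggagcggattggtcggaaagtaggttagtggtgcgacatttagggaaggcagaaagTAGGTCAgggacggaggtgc
Per3: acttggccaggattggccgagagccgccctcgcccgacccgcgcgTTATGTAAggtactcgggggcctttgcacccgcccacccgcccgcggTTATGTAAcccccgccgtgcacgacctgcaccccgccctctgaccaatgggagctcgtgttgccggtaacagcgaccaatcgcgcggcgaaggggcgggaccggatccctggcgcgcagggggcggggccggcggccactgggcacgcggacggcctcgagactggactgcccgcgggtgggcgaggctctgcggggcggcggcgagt
Ifit1: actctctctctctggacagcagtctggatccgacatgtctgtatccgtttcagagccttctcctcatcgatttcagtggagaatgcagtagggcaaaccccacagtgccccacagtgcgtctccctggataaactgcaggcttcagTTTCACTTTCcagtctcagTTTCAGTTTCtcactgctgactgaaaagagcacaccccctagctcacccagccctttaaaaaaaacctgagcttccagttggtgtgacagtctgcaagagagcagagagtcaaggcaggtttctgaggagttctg
Motifs were searched on both strands, and no window shown held matches of more than 1 of the motifs named here. CACGTG, the E-box bound by BMAL1 pairs, occurred 3 times in the Ciart window, beginning 116, 58 and 44 bases before the start. It was found in 7 of 28 windows of clock genes (19 of 23 genes had a window), in 4 of 19 windows of cholesterol genes and in 2349 of 32851 windows overall (7.15%). TAGGTCA, the core of the element bound by ROR and REV-ERB receptors, lay just after the start of Arntl. It was found in 2 of 28 windows of clock genes, in 2 of 19 windows of cholesterol genes and in 2.61% of all windows. TTATGTAA, the D-box bound by DBP and HLF, occurred in the Per3 window 205 and 158 bases before the start. It was found in 1 of 28 windows of clock genes and in 0.938% of all windows. The core of the interferon-stimulated response element, GAAA followed by any 2 bases and GAAA, lay 104 and 85 bases before the start of Ifit1, where the capitals show its reverse complement. It was found in 12 of 27 windows of interferon genes (23 of 29 genes had a window) and in 3.44% of all windows. A match describes letters in a window and is not evidence of binding in these samples.

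Genes that build cholesterol and fatty acids lay lower in diabetic nerve. All 20 tested genes of cholesterol synthesis and uptake had a lower mean, with a median of -0.29, where 51.7% of all genes had a higher mean. At an unadjusted p under 0.05 there were 2 of them, beside 0.817% of all genes lower at that level. Sc5d, the sterol desaturase near the end of the pathway, was at 9.94, 10.18, 10.46, 10.11 and 9.62 in control and at 8.96, 9.74, 9.76, 9.38 and 9.16 in diabetic arrays. Only CR715 fell within the diabetic range, and the difference was -0.66 (SE 0.19), 1.58-fold lower, with that sign in 3 of 3 probe sets. Insig1, which retains the SREBP escort protein in the endoplasmic reticulum and is itself an SREBP target, was at 12.75, 13.30, 13.30, 13.003 and 13.40 against 12.64, 12.98, 12.99, 12.90 and 12.61 (difference -0.33, SE 0.14, and -0.22 without CR715 and DR716). CR711 was the single control array inside the diabetic range. Cyp51, which removes a methyl group from lanosterol, was between 10.36 and 11.43 in control and between 9.84 and 11.02 in diabetic arrays (-0.54, SE 0.26). Hmgcs1, the enzyme that makes HMG-CoA, was at 14.27, 14.25, 14.29, 14.20 and 14.17 against 13.88, 14.15, 14.16, 14.05 and 14.11, with no overlap and a difference of -0.17 (SE 0.09). Differences over the list ran from -0.66 to -0.05. The list's level was lowest in DR716, at -0.70 against -0.14 to 0.21 in the other diabetic arrays, and in CR715 among the controls, at -0.27 against 0.24 to 0.50. Its median was -0.12 without DR716 and -0.43 without CR715. Without CR715 and DR716, where 48.2% of all genes had a higher mean, 19 of the 20 lay lower with a median of -0.23, and Sc5d differed by -0.66.

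All 23 tested genes of fatty acid and triglyceride synthesis also had a lower mean, with a median of -0.31 and a range from -1.31 to -0.02. At an unadjusted p under 0.05 there were 2 of them, beside 0.817% of all genes lower at that level. Scd1, the desaturase that makes oleate, was at 13.57, 13.69, 13.65, 13.55 and 14.11 in control arrays and at 13.41, 13.49, 13.45, 13.46 and 13.28 in diabetic arrays, with no overlap (difference -0.30, SE 0.11). CR715 was far above the other controls, and without it and DR716 the difference was -0.19. Fasn, fatty acid synthase, showed the same array more strongly, with 11.11, 10.99, 11.19, 10.87 and 12.99 against 10.99, 10.51, 10.72, 10.58 and 11.06 (difference -0.66, SE 0.31). Without both arrays the Fasn difference was -0.32. Slc25a1, the mitochondrial citrate carrier, differed by -0.41 (SE 0.20) and by -0.23 without them, and Acaca, acetyl-CoA carboxylase, by -0.46 (SE 0.24) and by -0.33. The list's level was 1.08 in CR715 and between -0.05 and 0.37 in the other controls, and 0.46 in DR716 against -0.28 to 0.07 in the other diabetic arrays. Without CR715 and DR716, 21 of the 23 lay lower with a median of -0.23, and without CR715 alone the median was -0.18. These genes are also expressed in adipocytes, whose level was highest in the same 2 arrays. With the adipocyte level of each array as a covariate, under which 49.2% of all genes had a higher mean and 3.97% were at an unadjusted p under 0.05, the median was -0.21 with 4 of 23 higher for fatty acid synthesis and -0.38 with 0 of 20 higher for cholesterol synthesis. With the same covariate, 23 of 24 myelin genes (median -0.19) and 18 of 18 neurofilament genes (-0.24) lay lower as well. Schwann cells also make these lipids, and the part of Schwann cell content in the cholesterol and fatty acid differences was not tested.

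**Figure D4:**
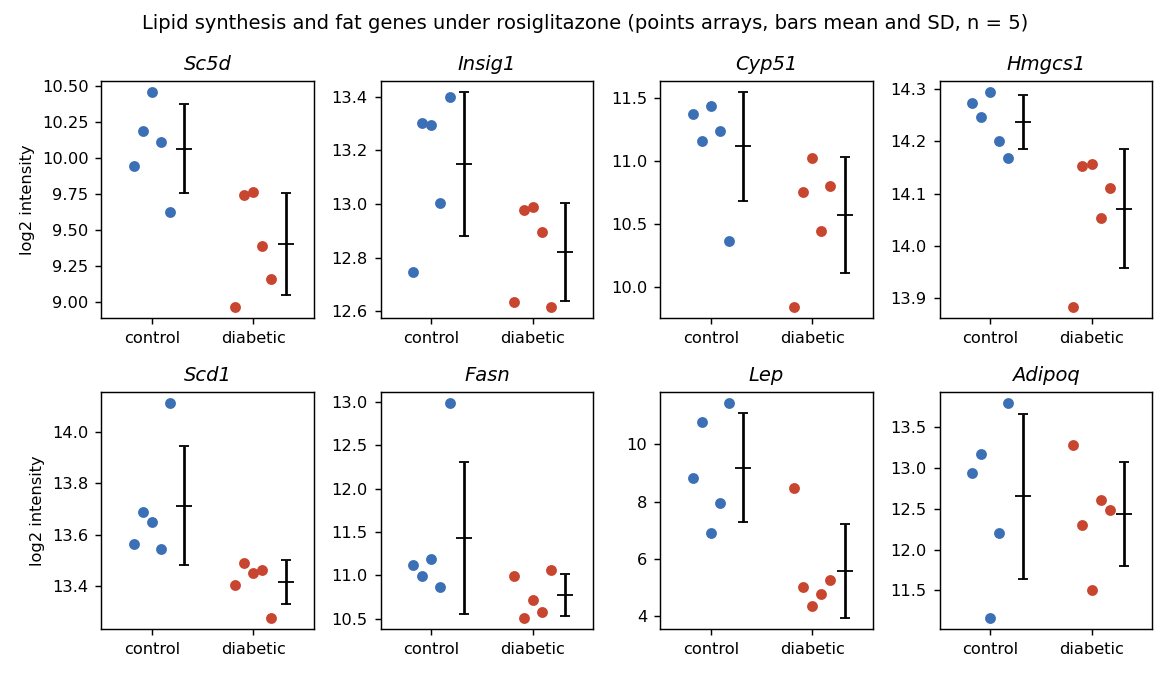
Log2 intensity (y axis) of 4 cholesterol pathway genes (top row), 2 fatty acid synthesis genes and 2 adipocyte hormones (bottom row) in the 5 control and 5 diabetic arrays under rosiglitazone, with points for arrays and bars for mean and SD. Hmgcs1 and Scd1 do not overlap between groups, Fasn is highest in CR715 at 12.99, and Lep is low in 4 diabetic arrays while Adipoq is not.

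Leptin transcripts were near the bottom of the scale in 4 of 5 diabetic arrays and higher in all control arrays. Lep, the hormone that adipocytes release in proportion to fat stores, was at 8.81, 10.78, 6.91, 7.93 and 11.46 in control arrays and at 8.47, 5.02, 4.35, 4.78 and 5.27 in diabetic arrays. The 4 diabetic arrays other than DR716 lay below every control array and below 5.54, the level under which genes were left out, and DR716, the diabetic array richest in adipocyte transcripts, lay among the controls. The means, 9.18 ± 1.91 (SD, n = 5) and 5.58 ± 1.65 (SD, n = 5), differed by -3.60 (SE 1.19, limma adjusted p = 1.00). Since values this low carry little order, the size of the difference is uncertain and no fold is given. It was -3.76 without CR715 and DR716 and -2.88 with the adipocyte level as a covariate. Adipoq, the adipocyte hormone adiponectin, was at 12.93, 13.17, 11.16, 12.20 and 13.80 against 13.28, 12.30, 11.50, 12.61 and 12.48, a difference of -0.22 (SE 1.17) that was 0.071 without CR715, -0.14 without CR715 and DR716 and 0.60 with the covariate. Of 15 adipocyte genes 14 had a lower mean, with a median of -0.58 that was -0.27 without CR715 and DR716, -0.066 without CR715 alone and -0.09 with the covariate. Lipe, hormone-sensitive lipase, differed by -1.11 (SE 0.67, 1 of 2 probe sets), Plin4, a lipid droplet coat protein gene, by -1.21 (SE 0.85), and Slc2a4, the insulin-regulated glucose transporter GLUT4, by -0.62 (SE 0.45, -0.07 without CR715 and -0.26 without both arrays). Of 10 brown fat genes 7 lay lower with a median of -0.23, or -0.15 without CR715 and DR716, and Dio2, which activates thyroid hormone, differed by -0.85 (SE 0.33, and -0.52 without CR715 and DR716). The covariate is itself the mean of 10 genes of the adipocyte list, so the list's median under it was largely fixed in advance. It cannot show how far adipocyte content carries the genes of that list. The part of adipocyte content in the other differences of this paragraph was not tested.

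No gene of the PPAR list was at an unadjusted limma p under 0.05, and SEs were wide for genes such as Pparg. Both groups had received the agonist of PPAR gamma, so the comparison does not show the effect of the drug itself. Pparg was at 9.02, 8.98, 6.99, 7.90 and 11.48 in control and at 10.63, 7.70, 6.88, 7.80 and 7.69 in diabetic arrays, a difference of -0.73 (SE 0.84) that was -0.08 without CR715. Its level was highest in CR715 and DR716, the arrays richest in adipocyte transcripts. Fabp4, a fatty acid carrier of adipocytes and macrophages, differed by -0.12 (SE 0.68), the fatty acid transporter gene Cd36 by -0.26 (SE 0.63, 0.22 without CR715 and -0.037 without both arrays), and Angptl4, an inhibitor of lipoprotein lipase, by -0.48 (SE 0.40, and -0.23 without both). Pdk4, which inhibits pyruvate dehydrogenase, differed by -0.12 (SE 0.17). Of 20 genes of the PPAR list 14 lay lower with a median of -0.12, or -0.063 without CR715 and DR716, 0.0016 without CR715 alone and -0.21 without CR713, and none was at an unadjusted p under 0.05. Rxrg, a partner receptor, differed by -0.33 (SE 0.17, and -0.20 without both arrays) and Abca1, a cholesterol exporter and target of LXR, by 0.43 (SE 0.25). Fatty acid oxidation genes were lower in 22 of 26 (median -0.14), or -0.08 without CR715 and DR716 and -0.030 without CR715 alone, and Acads, a short-chain acyl-CoA dehydrogenase gene, differed by -0.49 (SE 0.25, and -0.23 without them).

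Interferon-stimulated genes lay somewhat higher in diabetic nerve. Irf7, the transcription factor that amplifies type I interferon responses, was at 7.73, 7.56, 6.90, 7.40 and 8.74 in control and at 9.66, 8.30, 8.19, 8.58 and 9.05 in diabetic arrays. CR715 alone among the controls reached the diabetic range, and the difference was 1.09 (SE 0.32), 2.12-fold, or 1.13 without CR715 and DR716. Ifit1, an antiviral RNA-binding protein gene whose promoter window is shown above, was at 9.76, 9.51, 8.67, 9.06 and 9.38 against 10.34, 10.11, 9.77, 9.49 and 9.60 (difference 0.59, SE 0.26). CR711 and CR712 overlapped the lower diabetic arrays. Ifit2, a relative, differed by 0.29 (SE 0.13) and Usp18, a protease that dampens interferon signalling, by 0.61 (SE 0.30). Of 29 interferon response genes 25 had a higher mean with a median of 0.20, and 3 were higher at an unadjusted p under 0.05. Over all genes 51.7% had a higher mean and 0.468% were higher at that level. Without CR715 and DR716, 22 of the 29 lay higher with a median of 0.13, and without DR716 alone the median was 0.095. The level of the list was 0.46 in DR716 and -0.50 in CR713, while the remaining arrays lay between -0.15 and 0.10. Glucocorticoid-induced genes were higher in 13 of 14 (median 0.17, and 0.27 without CR715). Tsc22d3, the glucocorticoid-induced leucine zipper, was at 10.14, 10.29, 10.53, 10.88 and 10.83 against 11.37, 10.95, 11.20, 11.05 and 10.78 (difference 0.53, SE 0.21), and Fkbp5, a co-chaperone of the glucocorticoid receptor, differed by 0.60 (SE 0.30). Of 22 immediate early genes 19 lay higher with a median of 0.23, none of them at an unadjusted p under 0.05, and the list's level was 0.95 in CR715 and 0.85 in DR716 against -0.56 to 0.13 elsewhere. The median was 0.029 without DR716 and 0.48 without CR715.

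Transcripts of immune cells also lay mostly higher, carried by a few arrays. Of 19 macrophage genes 17 had a higher mean with a median of 0.24, the same to 2 decimals without CR715 and DR716 but 0.14 without DR719. Cd68, a lysosomal protein of macrophages, was at 10.97, 10.46, 10.44, 10.69 and 11.10 in control and at 11.66, 10.90, 10.82, 11.83 and 10.88 in diabetic arrays (difference 0.49, SE 0.28). DR716 and DR719 were above all controls and the other 3 diabetic arrays were among them. Ms4a7, another macrophage gene, had the same 2 arrays highest and differed by 0.60 (SE 0.35). Ccl8, a chemokine for monocytes and other leukocytes, was at 9.67, 9.71, 9.16, 10.01 and 11.82 against 13.27, 10.77, 10.05, 13.67 and 11.80 (difference 1.84, SE 0.95). Again DR716 and DR719 stood above the rest. Neutrophil genes had the highest median of the 41 lists, 1.61 with 7 of 8 higher. It was 2.23 without CR715 and DR716, and with 1 array left out it ran from 0.81 without DR719 to 2.16 without DR718. S100a8, a calcium-binding alarmin subunit of neutrophils, was at 7.997, 8.13, 9.81, 7.27 and 10.37 in control and at 10.35, 11.33, 8.13, 13.14 and 9.84 in diabetic arrays (difference 1.84, SE 1.37), and its partner S100a9 differed by 1.78 (SE 1.27). DR719 and DR717 were highest for both genes, DR718 lay among the controls, and no neutrophil gene was at an unadjusted p under 0.05.

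All 10 mast cell genes had a higher mean with a median of 0.84, and 0 were at an unadjusted p under 0.05 by limma. Tpsab1, a mast cell tryptase, was at 6.07, 5.98, 5.40, 6.05 and 7.38 against 8.36, 6.74, 5.58, 7.16 and 7.38 (difference 0.87, SE 0.44). The list's level was 1.17 in CR715 and 2.14 in DR716, and DR718, at -1.46, was the lowest of the 10 arrays. The median was 0.77 without CR715 and DR716, but 0.31 without DR716 alone and 1.26 without CR715 alone. Cytokine and chemokine genes were higher in 20 of 26 (median 0.29), MHC class II genes in 7 of 8 with 0.27 (6 of 8 with 0.15 without CR715 and DR716), and complement genes in 12 of 14 with 0.21 (0.11 without DR716 and 0.34 without CR715). H2-Eb1, an MHC class II beta chain gene, differed by 0.39 (SE 0.20), Ccl11, the eosinophil chemokine eotaxin, by 0.32 (SE 0.19), and Ccl3 by 0.52 (SE 0.32, and 0.32 without CR715 and DR716). The lymphocyte list was mixed, with 7 of 12 higher and a median of 0.10 that was -0.06 without CR715 and DR716, -0.13 without CR713 and 0.58 without CR714. Ighm, the heavy chain of IgM, was at 9.81, 9.87, 9.19, 11.62 and 12.60 in control and at 10.63, 8.44, 7.93, 9.53 and 8.74 in diabetic arrays (difference -1.57, SE 0.72), with 6 of its 11 probe sets of that sign. CR714 and CR715 stood above all other arrays. Cell cycle genes were higher in 17 of 18 (median 0.22), among them Pcna, the polymerase clamp (0.20, SE 0.09), while the helicase subunit gene Mcm4 was the exception at -0.24 (SE 0.11). The median was 0.13 without DR719, and the cell cycle level was highest in that array at 0.41 and between -0.24 and 0.16 in the other 9 arrays. DR719 was also 1 of the 2 arrays highest in macrophage transcripts, and the part of immune cell content in the cell cycle values was not tested.

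Medians of the transcripts of nerve and of sensory ganglia were near 0 over all 10 arrays, and most depended on CR715 and DR716. Mbp differed by -0.05 (SE 0.09), Pmp22 by -0.02 (SE 0.09) and Ndrg1, a gene of myelinating Schwann cells, by -0.10 (SE 0.09). Of 24 myelin genes 8 had a higher mean with a median of -0.04, and none was at an unadjusted p under 0.05. Without CR715 and DR716, 22 of the 24 lay lower with a median of -0.16, and Mbp differed by -0.11 and Ndrg1 by -0.15. The myelin median was -0.32 without CR715 and 0.065 without DR716, and with the adipocyte level as a covariate 23 of the 24 lay lower, at a median of -0.19. Ndrg1 was at 13.92, 13.92, 13.91, 13.90 and 13.62 in control and at 13.71, 13.72, 13.76, 13.80 and 13.78 in diabetic arrays, so that the 4 controls other than CR715 lay above every diabetic array. Genes of repair and immature Schwann cells were lower in 10 of 16 (median -0.02), or -0.16 in 13 of 16 without both arrays. Shh, a signal of injured Schwann cells, differed by -0.50 (SE 0.37). Ngfr, the neurotrophin receptor p75, was at 10.97, 10.63, 10.62, 10.27 and 7.85 against 9.43, 10.56, 10.62, 9.56 and 10.89 (difference 0.15, SE 0.54), which turned to -0.41 without CR715 and -0.21 without both arrays. Sensory neuron genes, whose cell bodies lie in ganglia outside the nerve trunk, had a median of -0.08 with 8 of 20 higher. Neurofilament and axonal genes had one of 0.00 with 7 of 18 higher. The sensory neuron median was -0.94 without CR715 and 0.83 without DR716, and over single arrays left out Isl1 ranged from -1.41 to 0.78, with -0.065 without both. The neurofilament median was -0.73 without CR715 and 0.48 without DR716, and with the adipocyte covariate 18 of 18 lay lower, at a median of -0.24. Node of Ranvier genes (12 of 21 higher, median 0.04), perineurial genes (3 of 11 higher, -0.04) and satellite glia genes (4 of 9 higher, -0.07) were near 0 over all 10 arrays. The node of Ranvier median was -0.41 without CR715 and 0.33 without DR716.

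Vessels and connective tissue gave small medians as well. Endothelial genes were higher in 12 of 21 (median 0.03). Vwf, von Willebrand factor, was at 11.37, 11.53, 10.65, 11.20 and 11.25 in control and at 12.11, 10.09, 10.68, 11.88 and 11.43 in diabetic arrays, a difference of 0.04 (SE 0.41) that turned to -0.17 without CR715 and DR716. Kdr, the VEGF receptor of endothelium, differed by -0.20 (SE 0.22, and -0.10 without both). Pericyte and smooth muscle genes were higher in 5 of 14 (median -0.05), and fibroblast and matrix genes in 27 of 48 with 0.03. Lum, the collagen-binding proteoglycan lumican, differed by 0.30 (SE 0.16).

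Pathways of glucose injury showed little difference. Polyol, hexosamine and glycation genes were higher in 12 of 16 (median 0.05), and their 1 member at an unadjusted p under 0.05, the transketolase gene Tkt of the pentose phosphate pathway, lay lower. Tkt was at 13.86, 13.71, 13.79, 13.75 and 14.04 in control and at 13.32, 13.55, 13.57, 13.61 and 13.69 in diabetic arrays, without overlap (difference -0.28, SE 0.13, and -0.17 without CR715 and DR716). Txnip, a glucose-induced inhibitor of thioredoxin, differed by 0.10 (SE 0.17, and 0.19 without both). Antioxidant genes were higher in 15 of 33 (median -0.02), and the superoxide dismutase Sod2 differed by -0.18 (SE 0.17, and -0.043 without both), catalase, Cat, by -0.17 (SE 0.10) and Hmox1, heme oxygenase, by -0.18 (SE 0.53, -0.29 without both and 0.38 without DR720). Oxidative phosphorylation genes lay lower in 52 of 71, but by a median of -0.03, and higher in 40 of 71 without CR715 and DR716. The succinate dehydrogenase subunit gene Sdha differed by -0.18 (SE 0.11, 2 of 4 probe sets). Glycolysis (8 of 17 higher, median -0.02), citric acid cycle (4 of 16 higher, -0.05, and 0.023 without CR715 and DR716) and insulin and IGF genes (13 of 25 higher, 0.02) gave no member at an unadjusted p under 0.05 by limma. Insr, the insulin receptor, differed by -0.03 (SE 0.24), Irs1 and Irs2, its adaptors, by -0.19 (SE 0.11) and -0.24 (SE 0.17), and Igf1 by 0.19 (SE 0.49). Chaperone and unfolded protein response genes were lower in 21 of 28 (median -0.13, -0.059 without CR715 and DR716 and -0.072 without CR715 alone), with Calr, calreticulin, at -0.12 (SE 0.08). Becn1, which starts autophagosome formation, was at 11.93, 11.88, 11.84, 11.73 and 11.71 against 11.54, 11.61, 11.63, 11.69 and 11.60, with no overlap (difference -0.21, SE 0.08), but 3 of 5 probe sets shared the sign and the mean over all 5 gave 0.017. The other autophagy genes had no common direction, with 14 of 26 in the list higher and a median of 0.00.

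Skeletal muscle transcripts were higher for 26 of 30 genes, at a median of 0.77. It was 0.67 without CR715 and DR716, but 0.040 without DR720 alone and 1.13 without DR719 alone. Acta1, skeletal muscle actin, was at 10.84, 6.32, 9.51, 8.78 and 11.73 in control and at 12.63, 9.20, 8.97, 8.14 and 13.27 in diabetic arrays (difference 1.01, SE 1.67). DR716 and DR720 held the most and CR712 the least. The slow-fibre troponin genes Tnnc1 and Tnni1 differed by 1.05 (SE 0.40) and 1.18 (SE 0.56), and by 0.61 and 0.50 without CR715 and DR716. Tnni1 was at 9.79 in DR716 and between 6.39 and 7.06 in the other diabetic arrays. Red blood cell genes had 3 tested members, 2 of them higher, with a median of 0.26 that ran from -0.13 to 0.77 with 1 array left out and was 0.80 without CR715 and DR716.

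Differences between diabetic and control nerve were smaller in the arrays with the drug than in those without it. The SD of the log2 differences over all genes was 0.22 under rosiglitazone and 0.49 under vehicle, 83 against 616 genes differed by more than 1, and 173 (1.29%) against 2439 genes (18.1%) were at an unadjusted p under 0.05, with 0 adjusted calls on both sides by limma. The vehicle groups were less alike in spread, with a median within-group SD of 0.15 in control and 0.40 in diabetic mice against 0.27 and 0.28 under rosiglitazone. Of the diabetic vehicle arrays, 2 had Gapdh 3' minus 5' differences of 3.71 and 4.38, above every other array. Sensory neuron genes had a median of -1.78 under vehicle, with 0 of 20 higher, against -0.08 under rosiglitazone, and neurofilament genes one of -0.99 against 0.00. The part of RNA quality and of this tissue content in the wider vehicle differences was not tested. Across 13460 genes, all measured on the same arrays within each set, the 2 sets of differences correlated with r = 0.23, or 0.04 without CR715 and DR716. Genes are not independent replicates, so no p is given. The sign was the same for 57.5% of all genes and for 126 of the 173 genes. Of those 173, 38 were also at an unadjusted p under 0.05 with the same sign under vehicle and 2 with the opposite sign. Among all genes, 18.1% were at that p under vehicle. These counts of shared sign and p were not taken without CR715 and DR716. Per2 differed by 1.11 with and by 1.29 (SE 0.38) without the drug, Irf7 by 1.09 and 0.98 (SE 0.34), Sc5d by -0.66 and -0.64 (SE 0.20), Arntl by -1.28 and -0.82 (SE 0.45), and Lep by -3.60 and -2.003 (SE 1.26). Medians with and without the drug were -0.29 and -0.27 for cholesterol synthesis, 0.49 and 0.49 for clock output, 0.20 and 0.26 for interferon response and 0.84 and 0.79 for mast cell genes. They were of opposite sign for macrophage (0.24 and -0.27), cytokine and chemokine (0.29 and -0.11) and neutrophil genes (1.61 and -0.61). The endothelial medians were 0.03 and 0.57 and the fatty acid synthesis medians -0.31 and 0.04.

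The interaction, which is the rosiglitazone difference minus the vehicle difference, tests whether diabetes differed between both drug states. No gene passed an adjusted p of 0.05 with limma (0.0%), the smallest adjusted p was 0.748, and 642 genes (4.77%) were at an unadjusted p under 0.05, 253 higher (1.88%) and 389 lower (2.89%). That count was 1428 without DR716, 1422 without CR715 and DR716, 361 without CR711, and 409, 403 and 424 without DR717, DR718 or DR719. With the Gapdh 3' minus 5' difference as a covariate it was 317. Ccl7, a monocyte chemokine, had the smallest p. It was at 8.79, 8.89, 8.95, 9.62 and 9.91 in control and at 9.44, 9.65, 10.15, 9.98 and 9.36 in diabetic arrays under rosiglitazone, a difference of 0.48 (SE 0.28), against -1.46 (SE 0.29) under vehicle, and the interaction was 1.95 (SE 0.40). Lum differed by 0.30 with and by -0.82 (SE 0.17) without the drug, an interaction of 1.12 (SE 0.23). C920021L13Rik differed by -0.31 with and by 0.84 (SE 0.20) without it, an interaction of -1.15 (SE 0.28), and the first of these differences had its sign in 1 of 2 probe sets. Cry2 differed by 0.10 and 0.71 (SE 0.14), with an interaction of -0.60 (SE 0.19), and Vwf by 0.04 and 1.61 (SE 0.43), with an interaction of -1.57 (SE 0.59). For Per2, Irf7, Sc5d, Per3 and Ciart the interaction was between -0.18 and 0.10, with SEs from 0.28 to 0.55, so that these differences could not be told apart with and without the drug at this precision. At the level of lists, 4 of 19 macrophage genes, 6 of 26 cytokine and chemokine genes, 5 of 21 endothelial genes and 8 of 48 fibroblast and matrix genes were at an unadjusted interaction p under 0.05, beside 4.77% of all genes. These lists were picked for their high counts. Neutrophil genes, whose medians had opposite signs, gave 0 of 8 and sensory neuron genes 0 of 20.

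**Figure D5:**
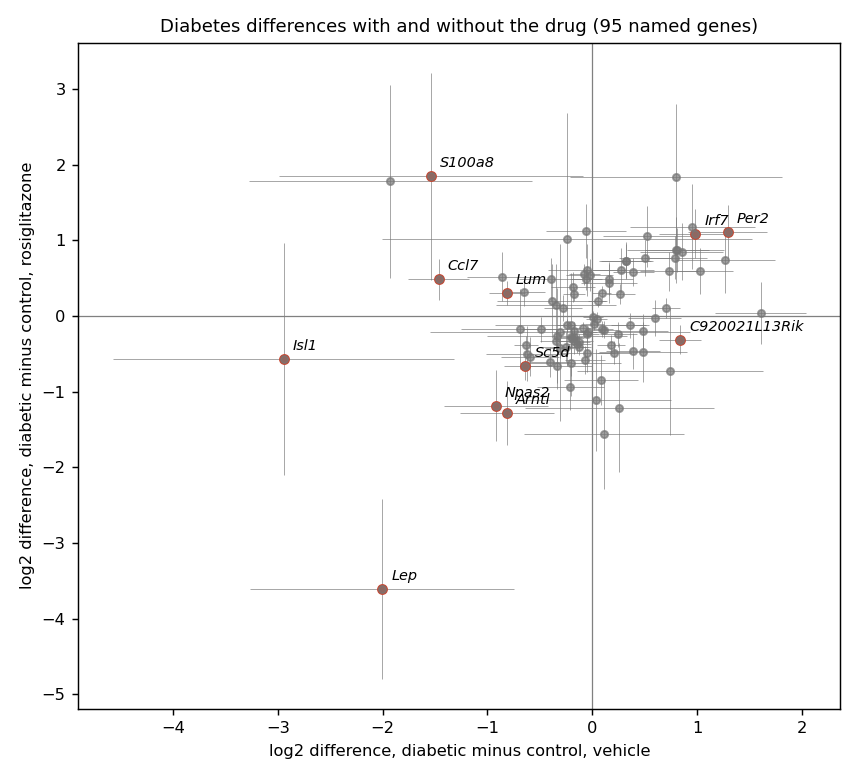
Log2 difference, diabetic minus control, under vehicle (x axis) and under rosiglitazone (y axis) for the 95 genes named, with bars of 1 SE from limma. Per2, Irf7, Sc5d, Npas2, Arntl and Lep lie on the same side of 0 in both comparisons, whereas Ccl7, Lum, S100a8 and C920021L13Rik lie on opposite sides.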

How the data were processed

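Total RNA of mouse sciatic nerve was extracted with RNeasy Mini columns and labelled with the NuGEN Ovation system, per the labels' protocols, and hybridised to Affymetrix arrays. The authors deposited 1 linear intensity per probe set and array, and the submitters' processing notes name RMA (background correction, quantile normalization, median polish) without a version. The step from RMA's log2 scale to linear values is not stated in these notes. Deposited intensities ran from 3.76 to 30602 and array medians from 83.3 to 101.7. They were taken to log2 without an offset. Of 45101 probe sets, 64 were controls, 34945 had 1 gene symbol, 932 several and 9160 none listed, and 34754 gene identifiers were found in the RefSeq table. For each of 18193 genes the probe set of highest mean over 19 arrays was kept, and 13460 above the 40th percentile of probe sets (log2 5.54) were tested.

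A model with 1 mean per group over all 19 arrays was fitted (limma 3.58.1, R 4.3.3, eBayes, Benjamini-Hochberg adjustment at 0.05) for diabetes under rosiglitazone, diabetes under vehicle and their interaction. It was tested on simulated data first. The fit pools the spread of all 4 groups, so SDs within a group and model SEs can differ. Each array is a different mouse, so p-values reflect the spread between mice, that of the vehicle arrays included, and the number of arrays limits the precision. With the 10 rosiglitazone arrays only, 238 genes (1.77%) were at an unadjusted limma p under 0.05. SEs then moved either way, to 0.18 for Per2 and to 0.37 for Irf7. The tested gene lists (41, with 888 of 990 entries tested) and named genes were chosen with earlier results of these data known, so lists are described by counts and medians without a test. Named genes were the 12 with the smallest p in each direction, the tested genes of a set of 26 fixed names, up to 4 members of smallest p in each list, and the 3 of smallest p in the interaction. Of these the text gives 95. Some genes of the lists were not analysed here. RNA quality was compared by two-sided exact permutation tests, adjusted over 2 tests (adjusted p = 0.865 for both). Alternatives changed the offset (16), filter, normalization, probe set rule, array weights, covariates and arrays used. The adipocyte covariate is the mean of 10 genes of the adipocyte list and leaves out Lep and genes of the lipid lists. It was added after the data were seen.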

Additional observations from a re-analysis of the deposited data

Results flagged for a closer look

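In 276 sets of 5 arrays (genes named, list levels and RNA quality values in each group), 35 held 1 array farther from the others than Dixon's 95% criterion for 5 samples (0.71 of the range) allows. By chance about 1 in 20 sets would if the sets were independent. They are not, since all come from the same arrays and many of the genes named are members of the lists. The 35 can therefore not be set against that share. Of the 35, 21 were array CR715 and 10 array DR716.

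In CR715, fat and lipid genes lay above the other controls, with Fasn at 12.99, Scd1 at 14.11, Slc25a1 at 10.66 and Slc2a4 at 10.95. Genes of Schwann cells and neurons lay below them, with Mbp at 13.83, Pmp22 at 13.82, Ndrg1 at 13.62, Ngfr at 7.85 and Isl1 at 6.41, as did Cyp51 at 10.36. List levels of CR715 were low for myelin (-1.05), glycolysis (-0.17), sensory neuron (-3.19), neurofilament (-2.42) and node of Ranvier genes (-1.56). They were high for fatty acid oxidation (0.59), brown fat (0.86), oxidative phosphorylation (0.26), citric acid cycle (0.49), mitochondrial ribosome (0.37) and mast cell genes (1.17).

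In DR716, Lep at 8.47, Cd36 at 11.99, Pparg at 10.63, Pdk4 at 12.72 and Tnni1 at 9.79 lay above the other diabetic arrays, and Pmp22 at 13.95, Isl1 at 3.83 and the proteasome level at -0.13 below them. Its Gapdh and beta-actin 3' minus 5' differences, 1.75 and 1.70, were the highest of the group.

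The other 4 were single genes in 4 different arrays. Clec4b1 was low in CR713 at 6.38, Nudt16l1 high in CR711 at 12.33, BC028528 high in DR719 at 11.32 and Hipk2 low in DR720 at 11.36.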

How the results depend on the processing

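With limma, 0 genes passed an adjusted p of 0.05 for diabetes under rosiglitazone under all 22 alternatives, with smallest adjusted p-values from 0.223 to 1.00, and the interaction likewise gave 0 under 21, with 0.161 to 0.999. At an unadjusted p under 0.05 the 173 genes became 266 without the filter on low values, 999 with array weights, 347 with the Gapdh covariate, 534 with the adipocyte covariate (3.97%), 762 without the 5 arrays of lowest sensory neuron level and 136 to 356 with 1 array left out. For the interaction (642) it was 1164 without the filter, 1290 with array weights, 317 with the Gapdh covariate, 1422 without CR715 and DR716 and 361 to 1428 with 1 array left out. Of 2076 values of the 95 genes, 31 had the opposite sign to the main value, and 83 genes never turned. With the adipocyte covariate Adipoq was 0.60, Fabp4 0.31, Cd36 0.17, Insr 0.043 and Ngfr -0.020. Ngfr was -0.017 and Vwf -0.48 with array weights, and -0.21 and -0.17 without CR715 and DR716 and also without the 5 arrays. Becn1 was 0.017 as the mean of its probe sets. With 1 array left out, the differences ran from -0.59 to 0.071 for Adipoq, -0.56 to 0.22 for Cd36, -0.093 to 0.014 for Pmp22, -0.41 to 0.37 for Ngfr, -0.18 to 0.33 for Vwf, -0.50 to 0.38 for Hmox1, -0.0096 to 0.21 for Txnip, -0.13 to 0.056 for Insr, -0.070 to 0.52 for Igf1 and -1.41 to 0.78 for Isl1. List medians that moved by more than the spread of their list's level between arrays were insulin and IGF (-0.037) and proteasome (0.13) without CR715 and DR716 and also without the 5 arrays, lymphocyte under the 60th percentile filter (-1.57, 1 gene left) and red blood cell with array weights (1.48). Of 902 list medians 104 changed sign, and 20 of 41 lists never did. The Gapdh 3' minus 5' difference ran from -0.18 to 0.0087 with 1 array left out. The cause of these shifts was not tested. No paired analysis was possible because the titles give no replicate number that is shared between groups. Intensities near the bottom of the scale, as for Lep in 4 diabetic arrays, carry little order.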

Other observations

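Genes of protein turnover and of the mitochondrial ribosome, described by no comparison above, were close to 0 under rosiglitazone. Proteasome subunit genes were higher in 21 of 31 (median 0.04), and in 26 of 31 (median 0.13) without CR715 and DR716. Mitochondrial ribosome genes were higher in 37 of 72 (median 0.00), and in 59 of 72 (median 0.10) without both arrays. Under vehicle the medians were -0.15 and -0.08.

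Pole4, a DNA polymerase subunit gene, differed by -0.38 (SE 0.11) with the drug and by -0.63 (SE 0.12) without it. It was at 10.45, 10.71, 10.64, 10.65 and 10.79 in control and at 10.28, 10.29, 10.55, 10.13 and 10.08 in diabetic arrays under rosiglitazone, and DR718 alone lay above the lowest control.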
